A study of Mus musculus with 6 samples.

Results

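Some of the genes described here encode or control hepcidin, the liver hormone that limits the entry of iron into blood. Others respond to the same signals or carry iron across membranes. The genes were Hamp, Hjv, Tfr2, Tmprss6, Hfe, Slc40a1, Bmp6, Slc39a14, Id1 and Smad7, chosen by name. Every probe set that the platform annotation gives to 1 of these genes alone was used. A probe set is a group of array probes read as 1 value, and it may match more than 1 transcript. The 10 genes had 19 of the 45037 probe sets tested and are among the 18193 genes with a probe set of their own. Each gene is represented in counts by its probe set with the highest mean log2 value.

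Livers of mouse embryos at E18.5, shortly before birth, were compared with 1 array each. The 3 controls (Control_8, Control_1192 and Control_1193) carried 1 loxP-flanked and 1 unflanked Hnf4 allele with the AlfpCre transgene, and in the 3 nulls (Null_61, Null_1191 and Null_1195) both alleles were flanked, with the same transgene. HNF4 alpha, encoded by Hnf4a, is a nuclear receptor of hepatocytes, and in AlfpCre mice elements of the albumin and alpha-fetoprotein genes drive Cre, so that the deletion is aimed at the hepatocyte lineage while endothelial, mesenchymal and blood-forming cells of the liver keep the gene. All 6 embryos therefore carried Cre, and the control livers had 1 flanked allele. The labels do not give litters, so p-values reflect only how these 6 samples vary, which may be in part technical.

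Hepcidin is a small peptide secreted by hepatocytes that binds ferroportin, the only known cellular iron exporter, and causes its destruction. Its gene, Hamp, is switched on when BMP6, made mainly by liver endothelial cells, binds BMP receptors on the hepatocyte together with the coreceptor hemojuvelin, and the SMAD proteins inside the cell then act on BMP response elements in the Hamp promoter. Transferrin receptor 2 and HFE report how much iron transferrin carries, interleukin 6 acts through STAT3, and the protease matriptase-2 lowers the signal by cutting hemojuvelin.

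The promoter of Hamp is shown because these inputs meet there, and that of Hamp2 because this second mouse hepcidin gene has probe sets on the same arrays. Both stretches are the 250 bases before the RefSeq gene start in GRCm38.p6, on the minus strand, for Hamp at chr7:30944030-30944279 and for Hamp2 at chr7:30924182-30924431. Capitals mark GGCGCC, the core of a BMP response element, and TTCNNNGAA, the letters of a STAT site, each searched on both strands (both read the same on either strand).
Hamp: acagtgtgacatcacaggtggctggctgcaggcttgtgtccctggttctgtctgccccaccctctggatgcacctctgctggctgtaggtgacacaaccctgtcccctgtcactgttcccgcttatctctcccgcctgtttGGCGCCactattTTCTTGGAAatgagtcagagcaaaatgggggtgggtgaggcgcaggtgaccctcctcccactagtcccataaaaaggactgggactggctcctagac
Hamp2: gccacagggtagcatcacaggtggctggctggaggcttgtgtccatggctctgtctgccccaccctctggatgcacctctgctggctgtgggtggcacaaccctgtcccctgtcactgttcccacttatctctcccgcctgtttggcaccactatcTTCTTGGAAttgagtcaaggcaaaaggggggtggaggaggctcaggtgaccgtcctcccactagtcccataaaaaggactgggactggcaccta
GGCGCC lay in Hamp at -109 to -104 from the gene start, and 9.65% of 32544 promoter windows of 250 bases held it. In Hamp2 the aligned letters were GGCACC, which is G4A counted from base 1 of the motif. TTCTTGGAA lay in Hamp at -97 to -89 and was the same in Hamp2, and 7.04% of windows held a match to TTCNNNGAA. The motifs do not overlap. The 2 windows were identical at 227 of 247 aligned bases (91.9%). CAAAGTCCA, 1 form of an HNF4 site, was not among the letters of either window. Nor was it in those of Tfr2, Hfe and Bmp6, the other 3 of the 4 list genes that matched the RefSeq table. Of all windows 0.387% held it on either strand, so its absence says little. HNF4 sites with other letters were not searched.

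In the null livers 4 of the 10 genes fell, Hjv, Tfr2, Tmprss6 and Slc39a14, and 0 rose, in limma with Benjamini-Hochberg adjustment over all probe sets at a threshold of 0.05. The background was 7.85% of all genes lower and 1.56% higher. At an unadjusted p under 0.05, 5 of the 10 were lower and 0 higher, against 2760 and 1656 of all 18193 genes. These shares are the background for the other lists below as well. The median log2 change of the 10 genes was -0.68, against 0.01 over all genes. By probe set 7 of 19 fell and 0 rose, where 5.55% and 1.46% of all probe sets did. At an unadjusted p under 0.05, 9 of the 19 were lower and 1 higher. The share over all probe sets was not counted, so these counts have no background and nothing is read from them. The 4 calls were made in all 17 alternative analyses. Log2 changes are null minus control after a pseudocount of 32, values with ± give the mean and the SD of deposited intensities (n = 3 arrays). A fold is taken from the log2 change, which understates changes of dim probe sets, and is given only where both means exceed 99.5, the highest array median. In these whole livers, fewer cells of a type and less RNA per cell cannot be told apart.

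**Figure D1:**
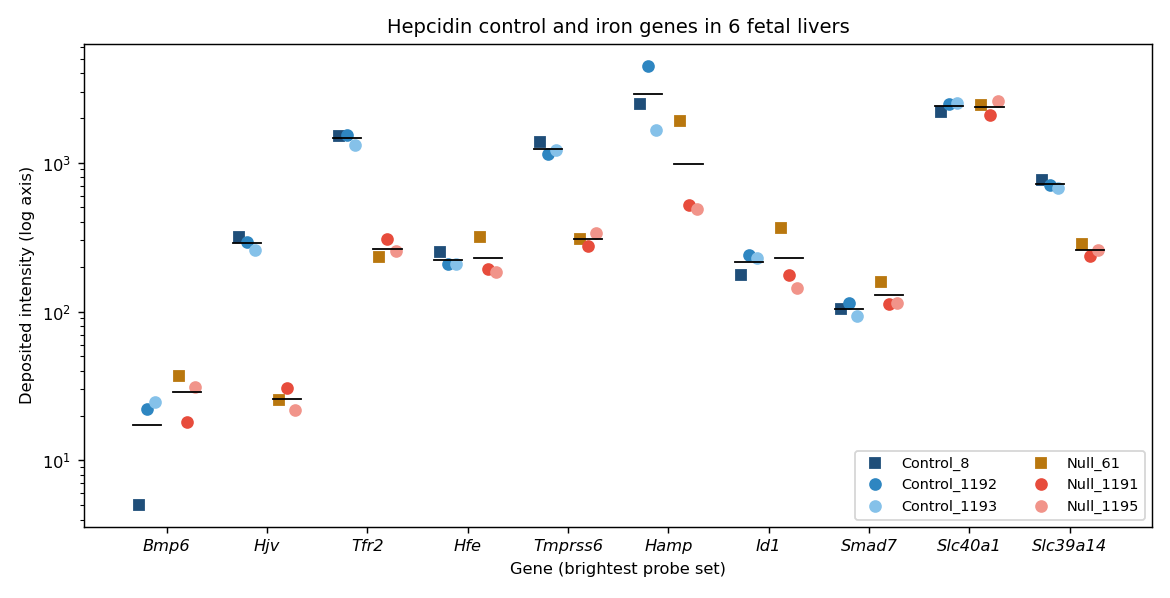
Deposited intensity (log axis) of the representative probe set of each of the 10 genes in the 6 livers, with a short line at each group mean. Squares are Control_8 and Null_61, and circles are the other arrays. Hjv, Tfr2, Tmprss6 and Slc39a14 separate the groups, while for Hamp Null_61 lies among the controls.

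Hemojuvelin, the BMP coreceptor that hepatocytes need for normal Hamp expression, lost most of its signal. The Hjv probe set 1454137_s_at read 317 in Control_8, 294 in Control_1192 and 257 in Control_1193, against 25.6, 30.7 and 21.7 in Null_61, Null_1191 and Null_1195. All nulls lay far below all controls and below the array medians, so no fold is given. Its log2 change was -2.47 (standard error 0.13, adjusted p = 6.45e-06). The other probe set, 1429223_a_at, had control values of 142, 146 and 139 in the same order, and null values of -4.20, -4.91 and 0.768. It had a log2 change of -2.44 (adjusted p = 4.80e-06). Because values below 0 were set to 0 before the log, its null values hardly differed in the test. The size of such falls to the background depends on the pseudocount, and over the alternatives it ran from -3.44 to -1.63 for 1454137_s_at and from -6.89 to -1.27 for 1429223_a_at.

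The ligand was hardly detected. Bmp6 had a single probe set, 1450759_at, which read 5.03, 22.1 and 24.8 in Control_8, Control_1192 and Control_1193 and 36.9, 18 and 31.0 in Null_61, Null_1191 and Null_1195. All 6 values lay far below the array medians and the groups overlapped (log2 change 0.31, 95% interval -0.18 to 0.80, adjusted p = 0.449), so the arrays give little information on this ligand. Among markers of endothelial cells, its known source, 3 of 13 fell and 0 rose (6 and 0 at an unadjusted p under 0.05). Of all genes 7.85% fell and 1.56% rose. The summed intensity of the 13 markers was 3101 to 3545 in the controls and 2541 to 2860 in the nulls, with none at 0.

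Of the iron sensors Tfr2 fell and Hfe did not pass the test. Transferrin receptor 2 binds iron-loaded transferrin at the hepatocyte surface. Tfr2 probe set 1425381_a_at read 1511 in Control_8, 1533 in Control_1192 and 1317 in Control_1193, against 231 in Null_61, 306 in Null_1191 and 254 in Null_1195. The groups were far apart, with a 5.04-fold fall (log2 change -2.33, standard error 0.13, adjusted p = 1.02e-05). Its other probe set, 1459994_x_at, fell 6.31-fold, from 1251 ± 132 to 171 ± 11.6 (adjusted p = 3.23e-06). Tfr2 is also expressed by erythroid precursors. Of 10 measured erythroid markers 0 fell and 0 rose in limma (0 and 3 at an unadjusted p under 0.05), and their summed intensity was 19266 to 20805 in the controls and 22208 to 22721 in the nulls, with none at 0.

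HFE, the membrane protein mutated in the common form of hereditary hemochromatosis, is thought to signal with transferrin receptor 2. Hfe probe set 1422645_at read 249, 209 and 209 in Control_8, Control_1192 and Control_1193 and 315, 193 and 183 in Null_61, Null_1191 and Null_1195. Null_61 was above all controls and the other nulls below them, so that the groups overlapped (log2 change 0.01, 95% interval -0.42 to 0.45, adjusted p = 0.980). The sign of this change turned with the array left out. The second Hfe probe set, 1450702_at, was below the array medians at 38.7 ± 12.8 and 45.0 ± 8.39. B2m, which encodes beta-2-microglobulin, the partner that HFE needs to reach the cell surface, fell 2.31-fold, from 4225 ± 421 to 1874 ± 646 (adjusted p = 0.00880).

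Tmprss6 encodes matriptase-2, the protease that restrains hepcidin. Probe set 1428676_at read 1370 in Control_8, 1142 in Control_1192 and 1210 in Control_1193, and 309 in Null_61, 276 in Null_1191 and 337 in Null_1195. The nulls lay close together and well below the controls, with a 3.75-fold fall (log2 change -1.91, standard error 0.12, adjusted p = 2.35e-05). Thus transcripts of an activator of the pathway (Hjv), of a sensor (Tfr2) and of an inhibitor (Tmprss6) all fell. Among hepatocyte markers 6 of 8 fell and 0 rose (6 and 0 at an unadjusted p under 0.05), with the apolipoprotein genes Apoa2 and Apoa1 down 5.31-fold and 3.83-fold and Fgb, a fibrinogen chain, down 1.96-fold. The calls of these 3 genes held in every alternative run. Those of the other 3, Ttr, Ahsg and Cps1, were each lost without Control_8 (adjusted p = 0.0668, 0.0841 and 0.118), Control_1192 (0.0622, 0.0574 and 0.128) or Control_1193 (0.0624, 0.0769 and 0.152), and with quantile normalization (0.106, 0.157 and 0.0772). Ahsg and Cps1 were lost also without Null_1191 (0.0694 and 0.153). Their summed intensity was 85029 to 86913 in the controls and 51618 to 57214 in the nulls, and none was at 0. Alb and Afp did not pass the test, with log2 changes of 0.02 and -0.06, at the top of the arrays' range. The control means of Ttr, Apoa2, Fgb, Apoa1 and Ahsg lay there too, at 10369, 10429, 11081, 11828 and 12408. Whether this limits their folds and the summed intensity was not tested.

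**Figure D2:**
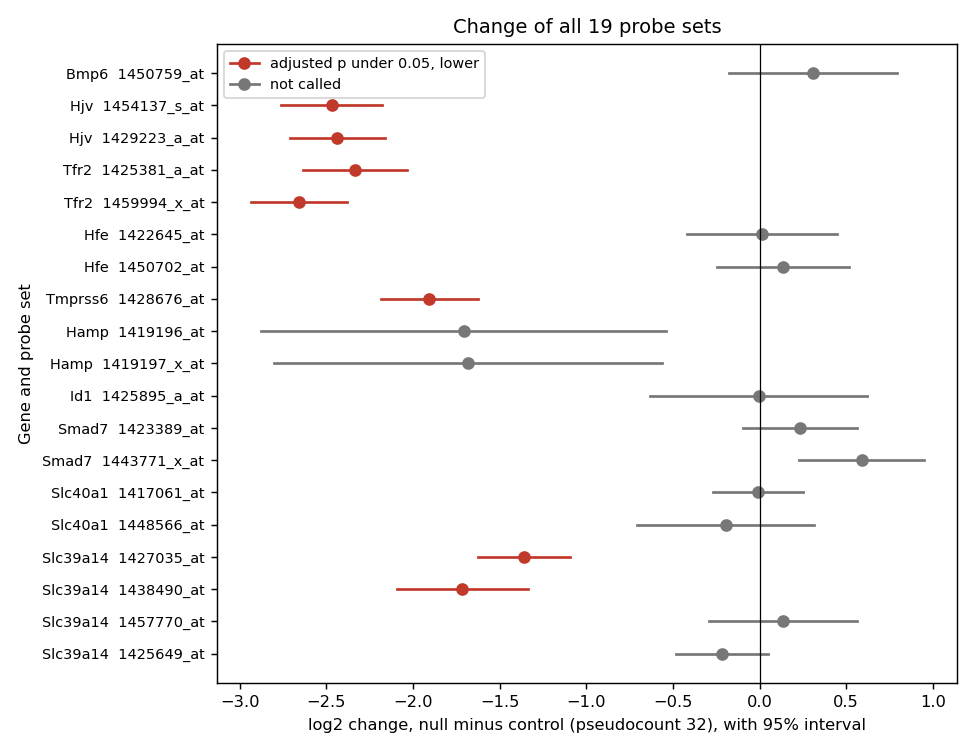
Log2 change, null minus control, of all 19 probe sets (points) with 95% intervals from limma (lines); red marks an adjusted p under 0.05. The 7 called probe sets belong to Hjv, Tfr2, Tmprss6 and Slc39a14, and the widest intervals are those of Hamp.

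Hepcidin itself was low in 2 of the 3 null livers. Hamp probe set 1419196_at read 2492 in Control_8, 4464 in Control_1192 and 1668 in Control_1193. In the nulls it read 1916 in Null_61, 517 in Null_1191 and 487 in Null_1195. Null_1191 and Null_1195 lay below every control, and Null_61 lay inside the control range. The controls differed among themselves 2.68-fold. Over all arrays Hamp was at 2875 ± 1436 and 974 ± 817, with a log2 change of -1.71, standard error 0.51 and a 95% interval of -2.87 to -0.54. The difference did not pass the test (adjusted p = 0.0933). The second Hamp probe set, 1419197_x_at, had control values of 2341, 4048 and 1607 and null values of 1773, 485 and 482 in the same order. It gave -1.68 (adjusted p = 0.0862).

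The call on Hamp turned on Null_61. Without that array the log2 change was -2.33 (adjusted p = 0.00309 in limma), and leaving out any other array gave -2.03 to -1.33 with no call. Null_61 and Control_8 have title numbers below 1000 and the other 4 arrays above, and on them the 18S ribosomal RNA control probes at the 5' end read 33.5 and 42.1, against 449 to 616 in the other arrays. The labels do not say what the numbers mark. Within the arrays numbered above 1000, Null_1191 and Null_1195 differed from Control_1192 and Control_1193 by -2.37 (adjusted p = 0.00468). Null_61 differed from Control_8 by -0.37, a pair too small for a test. With the number run as a term, Hamp was called at -1.71 (adjusted p = 0.0225), and array weights gave -2.12 (0.0105). By Xist and Y-linked probe sets the female embryos were Control_8, Null_1191 and Null_1195, and the rest were male. Among the arrays numbered above 1000 both nulls were thus female and both controls male. In the other pair this was reversed, with Control_8 female and Null_61 male. Genotype and sex therefore cannot be told apart within either number run, and the fit with number run as a term held no sex term. With embryo sex as a term the Hamp change was -1.37 (adjusted p = 0.162). In Null_61 markers of macrophages were also higher than in the other nulls, with a median log2 difference from the control mean of 0.82 against 0.34 in Null_1191 and 0.35 in Null_1195. Stellate and mesenchymal markers had medians of 0.43, -0.02 and 0.22 in Null_61, Null_1191 and Null_1195, and hepatocyte markers -0.87, -0.62 and -0.38. The part of number run, embryo sex and these cell type signals in the Hamp difference was not tested beyond these values.

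Hamp2, whose product is not thought to regulate iron, had a pair of probe sets that differed. 1436643_x_at read 532, 1388 and 439 in Control_8, Control_1192 and Control_1193 and 500, 112 and 119 in Null_61, Null_1191 and Null_1195. It followed the array order of Hamp closely, with log2 differences from the control mean of -0.44, -2.32 and -2.26 in Null_61, Null_1191 and Null_1195, against -0.46, -2.29 and -2.37 for Hamp. Its change over all arrays was -1.68 (adjusted p = 0.118). The other probe set, 1456289_at, had control values of 131, 100.4 and 136 and null values of 55.2, 137 and 141, with Null_61 the lowest array (log2 change -0.17, adjusted p = 0.750). Transcripts of such near-identical copies may share a probe set, and how far 1436643_x_at read Hamp was not tested.

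The BMP targets Id1 and Smad7 did not pass the test. Id1, an inhibitor of DNA binding that BMP signals induce in hepatocytes and other liver cells, read 175, 239 and 230 in Control_8, Control_1192 and Control_1193 and 364, 177 and 145 in Null_61, Null_1191 and Null_1195 at 1425895_a_at. Null_61 was the highest of all 6 arrays and Null_1195 the lowest (log2 change 0.00, 95% interval -0.63 to 0.62, adjusted p = 0.996). Smad7, an inhibitory SMAD that BMP and TGF beta signals induce, had control values of 104, 113 and 92.6 and null values of 158, 113 and 114 at 1423389_at (log2 change 0.24, adjusted p = 0.395). At its probe set 1443771_x_at the controls gave 91.7, 83.3 and 79.2, the nulls 183, 113 and 140. There all nulls lay above all controls, with a log2 change of 0.59, but the difference did not pass the test (adjusted p = 0.0636). It was called higher without Null_1191 (adjusted p = 0.0446), with number run as a term (0.0140) and among probe sets above the median level (0.0496). Groups did not overlap in 9 of the 19 probe sets, against 27.4% of all probe sets.

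**Figure D3:**
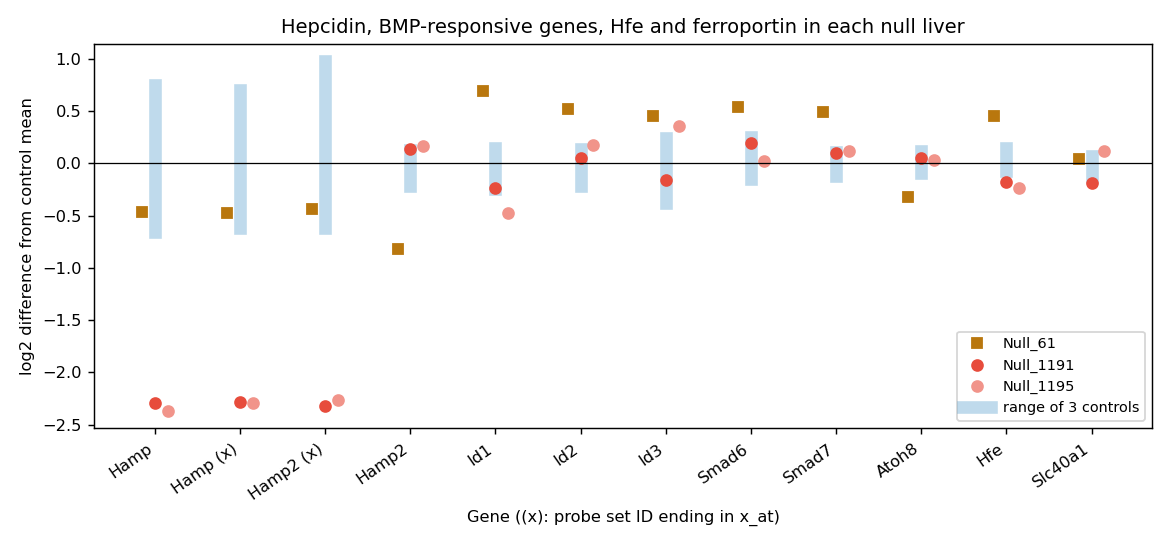
Log2 difference of each null liver from the control mean for hepcidin genes, BMP-responsive genes, Hfe and ferroportin; pale bars span the 3 controls. Null_1191 and Null_1195 lie between -2.26 and -2.37 from the control mean for Hamp and the (x) probe set of Hamp2, while Null_61 is within the control bar there and is the highest null for Id1, Id2, Id3, Smad6, Smad7 and Hfe.

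Few other genes of the BMP pathway passed the test. Of 27 measured genes of BMP and SMAD signalling 2 rose and 0 fell (3 and 1 at an unadjusted p under 0.05), with a median log2 change of 0.00. Of all genes 1.56% rose and 7.85% fell. Both genes of the list that rose encode proteins that dampen BMP signals. Grem1, another BMP antagonist in it, was not called (log2 change 0.02, adjusted p = 0.950). Bambi, a decoy receptor without a kinase, read 103, 103 and 113 in Control_8, Control_1192 and Control_1193 and 258, 215 and 215 in Null_61, Null_1191 and Null_1195, a 1.88-fold rise (adjusted p = 0.00203). Nog encodes the secreted BMP antagonist noggin. It was dim, at 33.3 ± 8.55 and 69.2 ± 7.62 (adjusted p = 0.0322), and the call was lost without Control_8, Control_1192, Null_1191 or Null_1195 (adjusted p = 0.111, 0.132, 0.124 and 0.0973). Further BMP-responsive genes did not pass the test: the log2 change was 0.25 for Id2, 0.22 for Id3, 0.25 for Smad6 and -0.08 for Atoh8. Null_61 was the highest array for Id2, Id3 and Smad6, and the lowest for Atoh8.

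A list of interleukin 6 genes and other inputs to hepcidin fell in part. It was not confined to the promoter or kept apart from BMP signalling, as it also held Inhbb, Furin, Pcsk7, Spint1, Spint2 and Timp3. Of its 21 measured genes 5 fell and 0 rose (7 and 0 at an unadjusted p under 0.05), with a median of -0.29. Over all genes the shares were 7.85% and 1.56%. Cebpa, whose product C/EBP alpha binds the Hamp promoter, fell 3.25-fold, from 1562 ± 45.6 to 464 ± 95 (adjusted p = 0.000120). Creb3l3, a membrane-bound factor that induces Hamp during stress of the endoplasmic reticulum, fell 2.17-fold, from 1347 ± 124 to 606 ± 77.5 (adjusted p = 0.000963). Epas1, the gene of HIF2 alpha, fell 2.62-fold and Spint2, a protease inhibitor, 1.81-fold (adjusted p = 0.000456 and 0.00354). The other probe set of each of these latter genes was not called. The fifth was Il6, which was below the array medians in every array at 29.9 ± 4.07 and 1.09 ± 3.49 (adjusted p = 0.0121), a call that was lost without Control_8 or Control_1192 (adjusted p = 0.0571 and 0.0519). Among genes of the interleukin 6 pathway, Il6ra, Il6st, Jak1, Jak2, Stat3 and Socs3 had log2 changes of -0.22, -0.07, -0.29, 0.05, -0.31 and 0.14. None of the 6 passed the test.

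Ferroportin, the target of hepcidin, showed no fall or rise that passed the test. Slc40a1 probe set 1417061_at read 2176, 2474 and 2505 in Control_8, Control_1192 and Control_1193 and 2453, 2083 and 2583 in Null_61, Null_1191 and Null_1195. The groups overlapped throughout (log2 change -0.01, 95% interval -0.27 to 0.25, adjusted p = 0.972). At 1448566_at the controls read 1208, 1203 and 1083 and the nulls 1543, 813 and 824. Here Null_61 was above and the other nulls below all controls (log2 change -0.19, adjusted p = 0.668). Without Null_61 this probe set was called lower, at -0.49 (adjusted p = 0.0216), and within the 4 arrays numbered above 1000, where sex and genotype coincide, at -0.47 (0.0490). Macrophages, which recycle iron from red cells, express much of the liver's ferroportin. Of 13 macrophage and Kupffer cell markers 3 rose and 0 fell (8 and 0 at an unadjusted p under 0.05), where 1.56% and 7.85% of all genes did. Adgre1 rose 1.60-fold, Timd4 1.51-fold and Clec4f 1.47-fold. Their list had a summed intensity of 6954 to 8099 in the controls and 8889 to 14049 in the nulls, with none at 0. In the order Timd4, Clec4f, Adgre1, the calls were lost when Control_1192 was left out (adjusted p = 0.119, 0.131 and 0.145) and when Control_1193 was (0.113, 0.113 and 0.128). Timd4 and Clec4f were lost also without Null_1191 (adjusted p = 0.0928 and 0.0525), Clec4f and Adgre1 without Null_1195 (0.0808 and 0.0639) and Adgre1 without Control_8 (0.0547). With embryo sex as a term none of the 3 was called (adjusted p = 0.0734, 0.0850 and 0.0699 in the same order), and Adgre1 was not with array medians centred (0.0524). The part of macrophages in the Slc40a1 values was not tested.

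Slc39a14 encodes ZIP14, which takes up iron that is not bound to transferrin, and 2 of its 4 probe sets fell. 1427035_at read 766 in Control_8, 708 in Control_1192 and 673 in Control_1193 against 283 in Null_61, 238 in Null_1191 and 260 in Null_1195. The groups were well apart, with a 2.56-fold fall (log2 change -1.36, standard error 0.12, adjusted p = 0.000142). 1438490_at fell from 161 ± 12.1 to 27.7 ± 13.1, by 1.71 on the log2 scale (adjusted p = 0.000296). Its null values lay below the array medians, and over the alternatives the log2 change ran from -2.59 to -1.04. In contrast 1425649_at stood at 199 ± 9.45 and 167 ± 14.6 (log2 change -0.22, adjusted p = 0.333), and 1457770_at at 171 ± 13.6 and 197 ± 59.7 (0.14, adjusted p = 0.726). Which transcripts each probe set reads was not analysed.

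Of 26 further measured genes of iron transport, storage and sensing 4 fell and 0 rose, where 7.85% and 1.56% of all genes did. At an unadjusted p under 0.05, 7 of the 26 were lower and 3 higher, against 2760 and 1656 of all 18193 genes. The median log2 change of the 26 was -0.11. Cp, the gene of ceruloplasmin, the plasma ferroxidase that helps ferroportin to load transferrin, read 3473, 3679 and 2306 in Control_8, Control_1192 and Control_1193 and 455, 306 and 374 in Null_61, Null_1191 and Null_1195. This was a 7.70-fold fall (adjusted p = 3.23e-05), with 4 of its 7 other probe sets lower as well and 3 not called. Aco1, which encodes the iron-responsive protein IRP1, fell 1.91-fold (adjusted p = 0.00209, 1 of its 2 other probe sets lower), besides B2m. Steap1, of a family of metalloreductases, was lower by 0.52 on the log2 scale (adjusted p = 0.0470), a call that was lost without any 1 of the 6 arrays (adjusted p from 0.0619 to 0.152), and its other probe set was not called. Tfrc, the gene of the main transferrin receptor, and Fth1, the ferritin heavy chain, did not pass the test, with log2 changes of 0.32 and -0.38. Tf and Ftl1, and Erfe of the BMP list, were not analysed here.

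**Figure D4:**
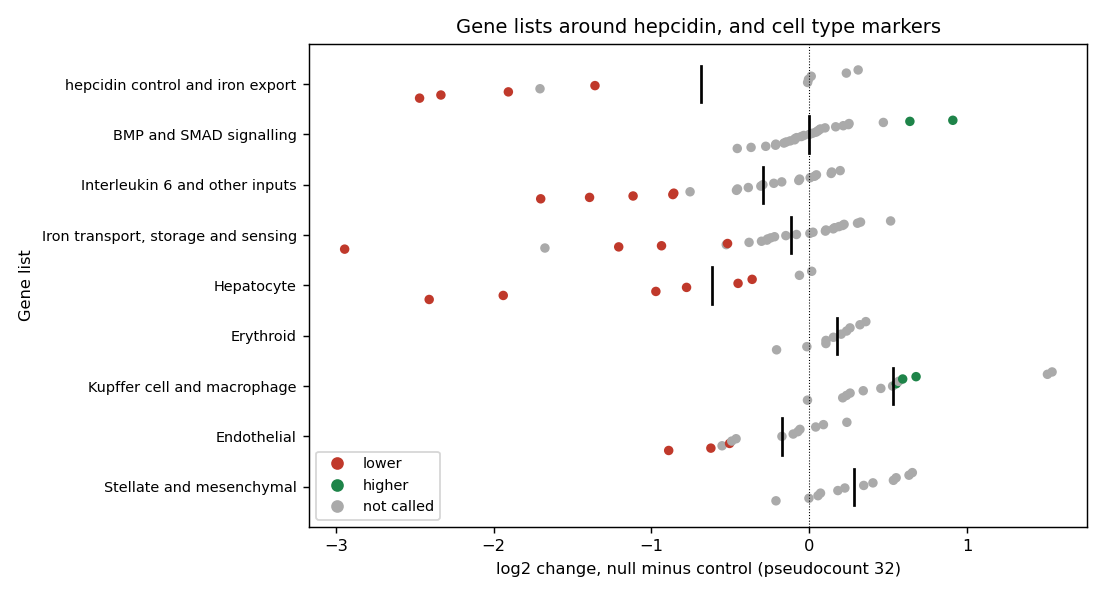
Log2 change, null minus control, of each measured gene (points) in the 10-gene list, the further pathway lists and the cell type marker lists, with the list median as a black line. Red and green mark an adjusted p under 0.05. Falls of more than 1 on the log2 scale lie in the hepcidin, interleukin 6, iron and hepatocyte lists, and BMP and SMAD signalling is centred on 0.

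Among endothelial markers Stab2, a scavenger receptor of sinusoids, fell 1.85-fold (adjusted p = 0.00530) and Kdr, the main VEGF receptor, 1.54-fold (0.0300), and Tek, an angiopoietin receptor, was lower at 93.3 ± 11.1 and 56.1 ± 3.31 (0.0449). The Kdr call was lost without Control_8, Control_1192, Control_1193 or Null_1191 (adjusted p from 0.0658 to 0.134) and that of Tek without any 1 of the 6 arrays (0.0505 to 0.173). Of 12 stellate and mesenchymal markers 0 fell and 0 rose in limma (0 and 4 at an unadjusted p under 0.05), and their summed intensity was 5070 to 6228 in the controls and 6029 to 9309 in the nulls, with none at 0.

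The deleted gene and the arrays were checked once. Hnf4a signal stood at 62.2% to 73.7% of the control mean in its 4 probe sets, of which 2 were called lower (both lost in several alternatives). The brightest, 1427001_s_at, was not called (adjusted p = 0.194). It read 2607, 2817 and 2877 in Control_8, Control_1192 and Control_1193 and 1778, 1562 and 2778 in Null_61, Null_1191 and Null_1195. Null_1195 thus lay inside the control range there. Where the 4 probe sets lie relative to the flanked exons was not analysed, and control livers had 1 flanked allele as well. Array medians were 91.8 to 99.5. Of all genes 1428 fell and 283 rose, and with quantile normalization 1196 fell and 616 rose.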

How the data were processed

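Per the labels' protocols, total RNA was extracted with a column kit, biotin-labelled and hybridised to Affymetrix arrays. The authors deposited 1 linear intensity per probe set, some below 0. Their summarisation, background step and scaling are not stated in the sources used here. After negatives were raised to 0, log2(intensity + 32) was used. Array medians then differed by 0.0877, under the tolerance of 0.2, so no scaling was added. The 64 Affymetrix controls among 45101 probe sets were dropped. The platform annotation gave 1 symbol to 34945 probe sets, several to 932 and none to 9160. No gene was named from several.

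The test was limma 3.58.1 under R 4.3.3 (lmFit, eBayes with an intensity trend, 6 arrays, no covariate), two-sided, with Benjamini-Hochberg adjustment over 45037 probe sets and a threshold of 0.05. The fit was tested on simulated data, where it missed many of the smaller changes it was given, so a gene that did not pass is not shown to be unchanged. The pass mark of that test was lowered after its first outcome, with the fit kept as it was. With 3 arrays a group the smallest exact permutation p is 0.1, and no such test was used. The number of arrays limits the precision. The genes and lists were chosen with earlier results of these data known. Outside the 10 genes, Hnf4a and Hamp2, the rule named up to 4 called genes of each pathway list and 3 of each marker list by smallest adjusted p, and the 3 genes with the profile most like Hamp. Added to it were Il6, Ttr, Ahsg and Cps1, which were called, and Alb, Afp, Tfrc, Fth1 and the other uncalled genes given with values. Promoter sequences are RefSeq's.

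The alternatives were quantile normalization, centred medians, pseudocounts of 1 and 100, a filter on probe sets under the median level, no trend, array weights, the mean of a gene's probe sets, title number run or embryo sex as a term, the 4 arrays numbered above 1000, and each array left out in turn.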

Additional observations from a re-analysis of the deposited data

How the results depend on the processing

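The calls of Hjv, Tfr2, Tmprss6 and Slc39a14, by representative probe set, were made in all 17 alternatives, the mean of a gene's probe sets included. The count of list genes called lower was 4 or 5, the fifth being Hamp, and that of probe sets called higher was 0, and 1 (Smad7) among probe sets above the median level, with number run as a term, and at most 1 when arrays were left out. Of 310 values of the 19 probe sets under alternatives, 278 kept direction and side of the threshold, 0 lost a call, 13 gained one and 19 changed sign.

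The changes of sign were in small differences that did not pass the test. Quantile normalization gave 0.22 and 0.053 for the Slc40a1 probe sets 1417061_at and 1448566_at and 0.068 for Id1, and a pseudocount of 100 gave 0.0088 for Id1. Array weights gave -0.088 for Hfe 1422645_at, and the 4 arrays numbered above 1000 gave -0.13. Hamp2 1456289_at, which is not of the list and not in the counts above, changed sign too, to 0.043 and 0.20 in these settings. Embryo sex as a term gave 0.035 for Slc40a1 1417061_at and 0.23 for Id1. With each array left out in turn the range was -0.21 to 0.14 for Hfe 1422645_at, -0.074 to 0.080 for Slc40a1 1417061_at, -0.050 to 0.33 for Slc39a14 1457770_at, -0.35 to 0.23 for Id1 and -0.34 to 0.15 for Hamp2 1456289_at. The cause was not tested. Over all genes the count higher ran from 98 to 747 and the count lower from 906 to 2021, both lowest without Control_1192.

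No paired analysis was possible because the groups share no replicate number. Signal over background limits Bmp6, Il6, Nog, the second Hfe probe set, and the null values of Acsbg2 and Ercc2.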

Other observations

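By the root mean square difference of log2 values over the 6 arrays, after each gene's control mean was subtracted, the 3 genes with the profile most like that of Hamp were Hamp2 (0.15), Acsbg2 (0.48) and Ercc2 (0.49). Hamp2 was ranked by 1436643_x_at, and in its other probe set Null_61 was the lowest array. Acsbg2 read 136, 92.5 and 71.6 in Control_8, Control_1192 and Control_1193, and 65.0, 6.75 and -20.7 in Null_61, Null_1191 and Null_1195. For Ercc2 the controls gave 191, 212 and 219, the nulls 128, -15.6 and 8.84. In both genes Null_61 was the highest null. Null_1191 and Null_1195 lay far below the array medians, so the likeness of Acsbg2 and Ercc2 to Hamp depends on the pseudocount. The measure holds both the difference between groups and the order of arrays within them.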
